A study of Homo sapiens and Mus musculus with 12 samples.

Results

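The RKO expression table held 301 rows for antisense RNA genes, of 15590 rows in all, chosen by a gene name ending in -AS and a number. They carry 300 names, because DHRS4-AS1 has 2 rows, and 277 of the rows have a row for the sense gene, the name before -AS, which gives 268 different sense genes. RKO is a human colon cancer cell line. All 6 libraries came from RKO cells with a stably carried shRNA against ZNF280C, a zinc finger gene, expressed from a promoter that tetracyclines switch on. In 3 libraries the cells had received 1 ug/ml doxycycline for 72 h (the doxycycline libraries), and in 3 they had not (the untreated libraries). A second hairpin or doxycycline on cells without the hairpin was not analysed here, so effects of the hairpin's target, of the hairpin and of doxycycline cannot be told apart. The labels do not say that the libraries came from separate cultures, so the p-values measure the spread between these libraries. The authors had adjusted the values for batch beforehand and the main fit carried no term for it, so the p-values may be too small.

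Antisense RNA genes are transcribed from the strand opposite a neighbouring gene. Many start near the neighbour's promoter and run away from it, and others cross its exons. Most are known as non-coding RNAs, some of which are unstable in the nucleus, and for some a role in controlling the neighbour has been reported. In the GENCODE v29 annotation, 212 of the 300 names share exons with their sense gene, and 53 share no exon but start within 1000 nt of it. Another 6 lie on its opposite strand in another arrangement. For 1 name, HNRNPU-AS1, the matched gene shares all its 22512 exonic nt and a start with HNRNPU on the same strand. That match is taken as HNRNPU itself, so the place of HNRNPU-AS1 is not known here. The remaining 28 were not placed, 24 of them because no row carried the name before -AS. A gene opposite can still have a row under another name: HOXA-AS3 shares 1507 exonic nt with HOXA7, which had one. The labels describe random priming of poly-A RNA into double-stranded cDNA with no step that keeps the strand, and the counting rule is not given, so reads over shared exons cannot be told apart between the members of a pair.

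The values are called signal here: they are on the scale of normalised read counts, after a batch adjustment by the authors, and are not divided by gene length. Read depth is unknown, and the libraries' summed signal lay between 9050570 and 9067360 in the doxycycline libraries and between 9050160 and 9195210 in the untreated ones. The hairpin's target ZNF280C had 123.2, 99.6 and 79.1 signal in the doxycycline libraries, against 192.5, 172.4 and 226.8 in the untreated libraries, a log2 fold change of -0.98 ± 0.15 (SE, adjusted p = 0.0276). That call was lost in 5 of the 6 fits without 1 library, all except the one without doxycycline 1 (adjusted p from 0.0294 to 0.0922 over the 6), and with a block for the libraries that share equal values (0.0769). Some libraries shared exactly equal values across groups: doxycycline 2 and untreated 2 in 310 rows, 12 of them antisense genes, and doxycycline 3 and untreated 1 in 526 rows, 17 of them antisense genes. HOXC-AS3 was equal in both pairs. Of 8 epithelial markers, 5 had a row, and their summed signal was 2037 to 2094 in the doxycycline libraries and 1929 to 1975 in the untreated libraries. CDX2, an intestinal transcription factor, was the only one called, at 220 ± 5.78 signal in doxycycline libraries and 177 ± 5.42 in untreated libraries (SD, n = 3 each; log2 fold change 0.31 ± 0.05, adjusted p = 0.0335 by limma). KRT8 had a log2 fold change of 0.23 ± 0.05 (adjusted p = 0.0523), KRT18 -0.063 ± 0.04, EPCAM 0.025 ± 0.08 and VIL1 -0.086 ± 0.09, and the part of these differences in the results on antisense genes was not tested.

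Few antisense genes were called with doxycycline, as was so for all genes, and a gene that was not called may still have changed. A gene was called when its adjusted p was under 0.05 over all 15590 rows (limma on log2(signal + 1), Benjamini-Hochberg), and 2 of 301 antisense rows were called: ACTA2-AS1 rose and PRC1-AS1 fell. Among all rows 178 genes, or 1.14%, were called, 60 higher and 118 lower. At an unadjusted p under 0.05 there were 32 antisense rows, 12 higher and 20 lower, which is 10.6% of them, against 17.0% of all genes. The 3 doxycycline values lay wholly above or wholly below the 3 untreated ones in 49 antisense rows, or 16.3%, against 21.9% of all genes. The median log2 fold change was -0.0096 over the antisense rows and -0.012 over all genes, with 132 antisense rows above 0 and 169 below.

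Antisense genes had a low signal, which is not per length, and their changes were measured with more error. Their median signal was 31.4, against 201.6 over all genes, and 63.1% of them had a mean under 50 signal, against 27.6% of all genes. The median standard error of the log2 fold change was 0.11 for antisense rows and 0.066 for all genes. Within a range of signal the errors were close: under 20 signal the median standard error was 0.17 for the 100 antisense rows and 0.18 for all genes there, and 13% of these antisense rows and 10.0% of all genes there had an unadjusted p under 0.05. Above 200 signal 2 of 28 antisense rows, or 7.14%, passed that threshold, against 21.4% of all genes at that level. Together the antisense genes made up 0.351% to 0.361% of the signal in the doxycycline libraries and 0.351% to 0.355% in the untreated libraries.

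**Figure D1:**
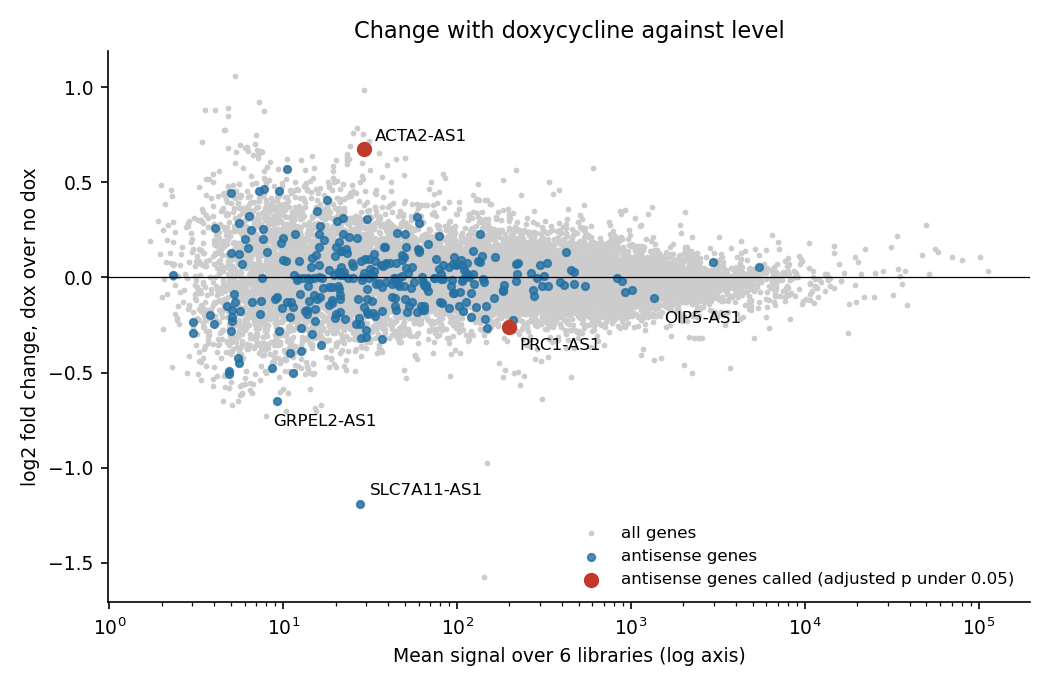
Change of each gene with doxycycline (log2 fold change, doxycycline over untreated, on the log2(signal + 1) scale) against its mean signal over the 6 libraries on a log axis, with all 15590 genes in grey, the 301 antisense rows in blue and the 2 called ones in red. Most antisense genes sit at the low-signal side around 0, ACTA2-AS1 lies at 0.67 and PRC1-AS1 at -0.26.

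ACTA2-AS1, which is transcribed against ACTA2, the gene of smooth muscle alpha-actin, was the only antisense gene called higher. It had 38.2, 37.7 and 32.5 signal in the doxycycline libraries, against 23.2, 21.5 and 22.0 in the untreated libraries. Every doxycycline library was above every untreated one. The doxycycline mean was 162.5% of the untreated mean, the log2 fold change was 0.67 ± 0.11 (SE) and the adjusted p was 0.0324 (limma); an exact two-sided permutation test over the 6 libraries gave 0.1, the smallest p that 3 against 3 allows. ACTA2 itself had 79.8, 101.8 and 61.7 signal in the doxycycline libraries, against 57.4, 50.4 and 65.0 in the untreated libraries. The ACTA2 groups overlapped, with doxycycline 2 highest, and its log2 fold change of 0.46 ± 0.16 did not pass (adjusted p = 0.180). The antisense minus sense log2 difference was -1.12 ± 0.26 in the doxycycline libraries and -1.33 ± 0.17 in the untreated libraries (SD, n = 3 each; exact permutation p = 0.3), so a difference between the 2 changes was not detected.

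Per kilobase of its longest annotated transcript, ACTA2-AS1 had a mean of 11.9 signal and ACTA2 51.4. In the annotation 516 of the 3183 exonic nt of ACTA2-AS1 lie opposite ACTA2 exons. It also lies within STAMBPL1, a deubiquitinase gene on its own strand, with no shared exon, and STAMBPL1 had a log2 fold change of -0.18 ± 0.05 (adjusted p = 0.127). Other genes of smooth muscle and fibroblasts were measured beside it: 4 of 10 such markers had a row (ACTA2, TAGLN, MYH11, COL1A1), none was called, and their summed signal was 688 to 726 in the doxycycline libraries and 577 to 631 in the untreated libraries. TAGLN, an actin-binding protein of smooth muscle, averaged 526 ± 36.0 signal in doxycycline libraries and 447 ± 30.5 in untreated libraries. The fibroblast collagen COL1A1 averaged 6.23 ± 3.06 signal in doxycycline libraries and 3.38 ± 1.65 in untreated libraries. MYH11 was not higher, at a mean of 98.6 signal in doxycycline libraries and 101.7 in untreated libraries (log2 fold change -0.045 ± 0.08). Of 3 endothelial markers none had a row, and of 4 leukocyte markers only CD68 did. The part of such cells in the ACTA2-AS1 result was not tested. The call ended without any 1 of the 6 libraries (adjusted p from 0.0633 to 0.136, log2 fold change 0.63 to 0.75) and with a block for the libraries that share equal values (adjusted p = 0.204).

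PRC1-AS1 was the only antisense gene called lower. It lies opposite PRC1, the gene of a protein that bundles microtubules in the central spindle during cytokinesis. PRC1-AS1 had 183.5, 181.5 and 174.6 signal in the doxycycline libraries, against 217.3, 214.4 and 215.6 in the untreated libraries. The groups stood apart, with a narrow spread in each, and the doxycycline mean was 83.3% of the untreated mean (log2 fold change -0.26 ± 0.05, adjusted p = 0.0459 by limma). PRC1 had 1024, 1052 and 1144 signal in the doxycycline libraries, against 1251, 1216 and 1154 in the untreated libraries. The PRC1 groups did not overlap either, though doxycycline 3 and untreated 3 were close, and its log2 fold change of -0.17 ± 0.05 did not pass (adjusted p = 0.120). The antisense minus sense difference was -2.57 ± 0.12 in the doxycycline libraries and -2.48 ± 0.06 in the untreated libraries (exact permutation p = 0.4). Of the 1799 exonic nt of PRC1-AS1, 406 lie opposite PRC1 exons, and the call ended when any 1 library was left out (adjusted p from 0.0845 to 0.158), with the equal-value block (0.259), under equal sums, quantile normalisation or median centring (0.0555 to 0.0562) and with the trend in GC content removed (0.0810).

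The promoter windows of this pair are shown because both genes were lower in all doxycycline libraries. The 300-base windows run from 250 bases before to 50 after the annotated start, 5′ to 3′ on the gene's strand (RefSeq, GRCh38.p14), and capitals mark matches on either strand to 4 motifs. These are the CHR element known from cell cycle genes (searched as TTTGAA), the CCAAT box (searched by those letters), the TATA box (searched as TATAAA) and the GC box (searched as GGGCGG). PRC1-AS1 is at chr15:90966119-90966418 on the plus strand and PRC1 at chr15:90994486-90994785 on the minus strand.
PRC1-AS1: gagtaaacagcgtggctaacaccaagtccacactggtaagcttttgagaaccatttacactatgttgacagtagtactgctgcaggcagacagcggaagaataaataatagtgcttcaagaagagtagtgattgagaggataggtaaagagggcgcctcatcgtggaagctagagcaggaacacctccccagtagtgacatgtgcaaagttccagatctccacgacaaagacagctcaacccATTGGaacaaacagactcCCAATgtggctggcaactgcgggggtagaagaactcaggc
PRC1: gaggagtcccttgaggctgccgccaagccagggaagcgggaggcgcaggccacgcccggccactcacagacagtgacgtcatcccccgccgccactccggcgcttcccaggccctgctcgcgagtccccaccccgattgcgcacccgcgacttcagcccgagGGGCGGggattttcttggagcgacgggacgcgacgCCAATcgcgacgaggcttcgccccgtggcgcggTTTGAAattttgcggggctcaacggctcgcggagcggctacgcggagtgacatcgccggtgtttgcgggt
The PRC1 window held a CHR element from position -20, a CCAAT box from -53 and a GC box from -88 relative to the start, all on the gene's strand. The PRC1-AS1 window held a CCAAT box on its own strand from position 11 and on the other strand from -8, and none of the other 3 motifs. Its GC content was 48.3%, with 6 CG dinucleotides, against 69.7% and 40 CG dinucleotides in the PRC1 window. Over all 35116 RefSeq windows of that length, 15.2% held a CHR element, 34.6% a CCAAT box, 11.5% a TATA box and 45.0% a GC box. Among the 215 windows of antisense genes the shares were 11.2%, 27.4%, 6.05% and 47.0%, and among the 347 windows of sense genes 15.0%, 33.7%, 7.20% and 62.5% for the CHR element, CCAAT box, TATA box and GC box. A window was present for 175 of the antisense genes, and a match is a description of letters only.

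GRPEL2-AS1 lies opposite GRPEL2, which encodes a nucleotide exchange factor of the mitochondrial Hsp70 chaperone. GRPEL2 was 1 of 2 sense genes that were called, both lower. It had 389.6, 339.8 and 383.3 signal in the doxycycline libraries, against 442.9, 486.8 and 507.5 in the untreated libraries, and no doxycycline library reached the untreated range (log2 fold change -0.37 ± 0.07, adjusted p = 0.0397). GRPEL2-AS1 had 7.76, 5.85 and 7.36 signal in the doxycycline libraries, against 12.7, 11.8 and 10.0 in the untreated libraries. These groups did not overlap either, at a low signal in every library, and the log2 fold change of -0.65 ± 0.16 did not pass (adjusted p = 0.0870). The antisense minus sense difference did not stand apart (exact permutation p = 0.3). In all, 127 of the 401 exonic nt of GRPEL2-AS1 lie opposite GRPEL2 exons. The GRPEL2 call ended without any 1 library (adjusted p from 0.0627 to 0.150) and with the equal-value block (0.193).

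The windows of this pair are shown for the same reason and marked in the same way. GRPEL2-AS1 is at chr5:149357593-149357892 on the minus strand and GRPEL2 at chr5:149345249-149345548 on the plus strand.
GRPEL2-AS1: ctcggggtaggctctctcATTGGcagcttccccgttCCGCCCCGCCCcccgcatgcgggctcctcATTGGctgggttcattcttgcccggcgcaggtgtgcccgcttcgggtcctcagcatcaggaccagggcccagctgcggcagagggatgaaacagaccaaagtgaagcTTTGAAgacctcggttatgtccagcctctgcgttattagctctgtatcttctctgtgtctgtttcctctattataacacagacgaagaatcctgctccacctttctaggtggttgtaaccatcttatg
GRPEL2: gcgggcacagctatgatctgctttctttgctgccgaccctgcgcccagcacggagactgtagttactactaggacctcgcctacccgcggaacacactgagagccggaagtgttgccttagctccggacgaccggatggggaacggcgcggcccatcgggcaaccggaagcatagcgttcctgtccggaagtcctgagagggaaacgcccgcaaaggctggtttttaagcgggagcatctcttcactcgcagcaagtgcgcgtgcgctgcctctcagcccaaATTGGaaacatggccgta
The GRPEL2-AS1 window held a CHR element from position -78 on its own strand, and on the other strand CCAAT boxes from -232 and -185 and GC boxes from -214 and -209 that overlap by 1 base. The GRPEL2 window held a CCAAT box from position 33 on the other strand and none of the other 3 motifs.

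WWTR1-AS1 had overlapping groups while its sense gene was the other one called. WWTR1 encodes TAZ, a transcriptional co-activator of the Hippo pathway. WWTR1 had 768, 773 and 738 signal in the doxycycline libraries, against 878, 892 and 869 in the untreated libraries, and the groups stood apart (log2 fold change -0.21 ± 0.04, adjusted p = 0.0381). WWTR1-AS1 had 34.8, 41.9 and 39.0 signal in the doxycycline libraries, against 39.8, 37.5 and 40.3 in the untreated libraries. The WWTR1-AS1 groups overlapped, at a log2 fold change of -0.026 ± 0.10 (adjusted p = 0.936), which turned to 0.044 without doxycycline 1. The antisense minus sense difference was -4.27 ± 0.14 in the doxycycline libraries and -4.45 ± 0.07 in the untreated libraries, which a permutation test did not separate (exact p = 0.2). The WWTR1 call ended without any 1 library (adjusted p from 0.0662 to 0.150), with the equal-value block (0.218), under quantile normalisation (0.0588) and median centring (0.0503) and with the GC trend removed (0.128).

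The 2 genes start 185 nt apart and run away from each other from 1 of the annotated WWTR1 starts, so that 284 bases of their windows are the same DNA. The WWTR1-AS1 window, at chr3:149657960-149658259 on the plus strand, is shown whole, and 284 of its 300 bases are the shared ones. It held none of the 4 motifs on either strand.
WWTR1-AS1: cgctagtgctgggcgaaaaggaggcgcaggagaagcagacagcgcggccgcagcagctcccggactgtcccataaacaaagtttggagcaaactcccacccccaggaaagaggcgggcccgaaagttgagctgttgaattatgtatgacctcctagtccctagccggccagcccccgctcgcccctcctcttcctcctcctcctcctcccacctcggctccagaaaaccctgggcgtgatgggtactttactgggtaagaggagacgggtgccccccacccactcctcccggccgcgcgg
Shared windows were common among the antisense genes. Of the 145 pairs with a window for both genes, 39 had windows that overlapped and 42 had starts that diverged within 1000 nt, counting any of the annotated starts.

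**Figure D2:**
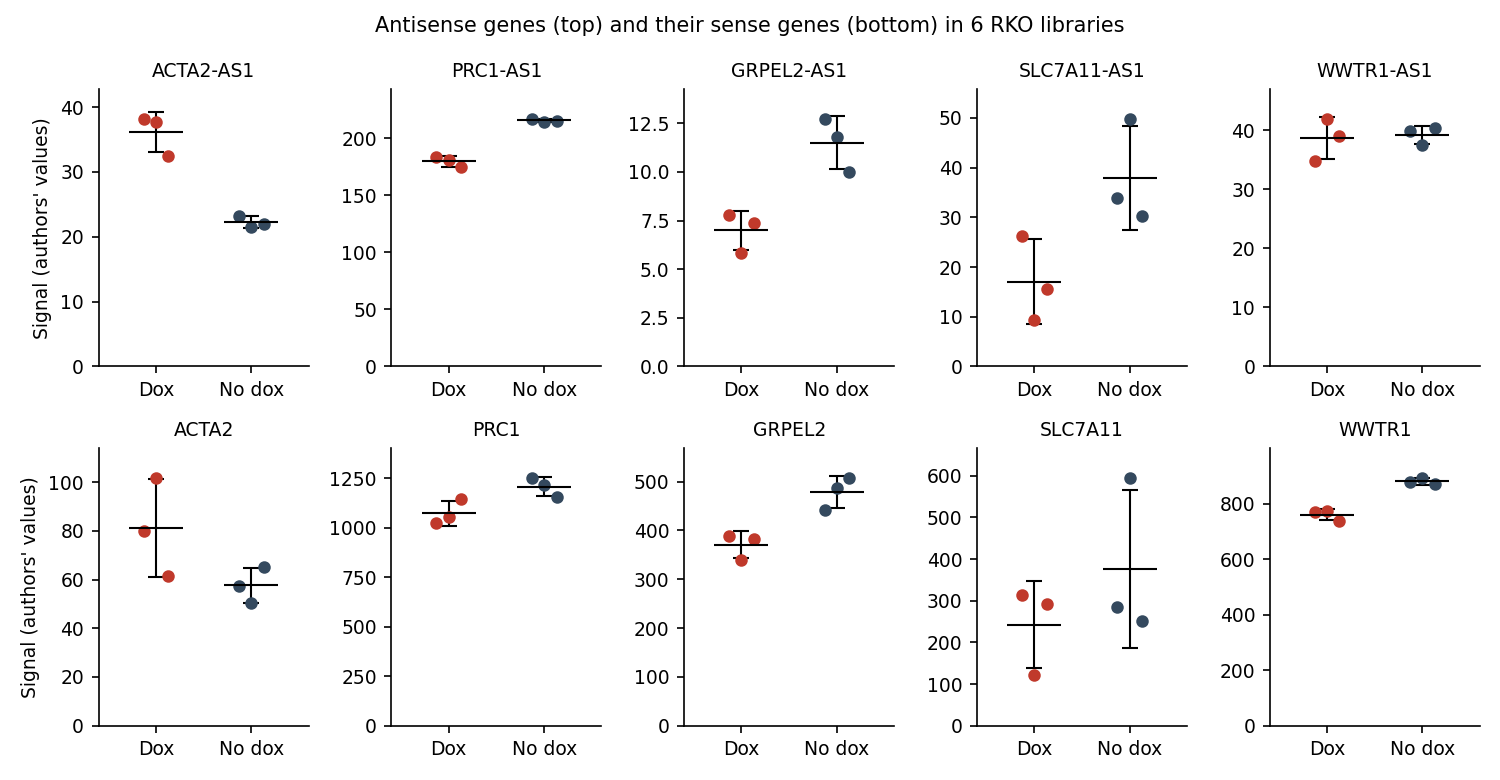
Signal in each of the 3 doxycycline and 3 untreated libraries (points) with the mean and SD (bars) for 5 antisense genes in the top row and their sense genes in the bottom row, on axes from 0 that differ between panels. ACTA2-AS1 was higher in every doxycycline library, PRC1-AS1 and GRPEL2-AS1 were lower together with their sense genes, and WWTR1-AS1 overlapped while WWTR1 did not.

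SLC7A11-AS1 had the largest log2 fold change of the antisense genes, and 1 library of each group stood out. SLC7A11 encodes the transport subunit of the cystine/glutamate antiporter. SLC7A11-AS1 had 26.3, 9.29 and 15.6 signal in the doxycycline libraries, against 33.8, 49.8 and 30.3 in the untreated libraries. The groups did not overlap, and the log2 fold change was -1.19 ± 0.31, which did not pass (adjusted p = 0.0900). SLC7A11 had 312.7, 122.5 and 292.6 signal in the doxycycline libraries, against 284.5, 594.5 and 251.1 in the untreated libraries. For both genes doxycycline 2 was lowest and untreated 2 highest. The SLC7A11 groups overlapped (log2 fold change -0.64 ± 0.37, adjusted p = 0.425), but outside those 2 libraries every doxycycline value of SLC7A11 was above every untreated one. Between doxycycline 2 and untreated 2, which share equal values in other rows, the log2 difference was -2.31 for SLC7A11-AS1 and -2.27 for SLC7A11. In the other pair that shares values it was -1.07 and 0.040, and in the pair left over -0.19 and 0.32, for SLC7A11-AS1 and SLC7A11. Without doxycycline 2 the log2 fold change was -0.84 for SLC7A11-AS1 and -0.21 for SLC7A11.

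The remaining antisense genes with the lowest p among those lower with doxycycline did not pass, at adjusted p values of 0.0870 to 0.202. THAP9-AS1, opposite a gene related to DNA transposases, had 199.9, 192.2 and 186.3 signal in the doxycycline libraries, against 230.3, 213.3 and 232.6 in the untreated libraries (log2 fold change -0.22 ± 0.06), while THAP9 had overlapping groups. THAP9-AS1 also shares 482 exonic nt on the same strand with SEC31A, whose log2 fold change was -0.038 ± 0.05. RRM1-AS1, opposite the large subunit of ribonucleotide reductase, had a log2 fold change of -0.32 ± 0.12, and RRM1 one of -0.18 ± 0.04. KMT2E-AS1, beside a chromatin regulator gene, gave -0.32 ± 0.10 and KMT2E -0.12 ± 0.04. For both of these pairs all 4 genes had groups that did not overlap. ZNF295-AS1 had a log2 fold change of -0.40 ± 0.13. No row was named ZNF295, but ZNF295-AS1 shares 118 exonic nt with ZBTB21 on the opposite strand, which had -0.15 ± 0.04. Pairs were matched by name, so ZNF295-AS1 is not in any pair counted here. The others were ST7-AS1 (-0.28), SLC25A21-AS1 (-0.36) and CFLAR-AS1 (-0.50), each at a mean below 35 signal.

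Among antisense genes higher with doxycycline, 9 followed ACTA2-AS1 in order of p, at adjusted p values of 0.138 to 0.261. BOK-AS1, opposite a gene of the BCL-2 family, had 14.8, 14.3 and 9.45 signal in the doxycycline libraries, against 7.38, 9.11 and 8.08 in the untreated libraries (log2 fold change 0.57 ± 0.19). FAM83H-AS1, whose neighbour encodes a keratin-associated protein, had 65.9, 72.0 and 61.3 signal in the doxycycline libraries, against 58.2, 50.3 and 54.3 in the untreated libraries (0.29 ± 0.09). In both cases the groups stood apart, and so did those of the sense genes, with log2 fold changes of 0.13 ± 0.04 for BOK and 0.11 ± 0.04 for FAM83H. BCDIN3D-AS1 (0.32) and ARSD-AS1 (0.31) lie opposite genes of an RNA methyltransferase and an arylsulfatase. PITPNA-AS1 (0.23), SOCS2-AS1 (0.46), TNRC6C-AS1 (0.35), RNF157-AS1 (0.45) and PROX1-AS1 (0.41) complete the set, and of these only RNF157-AS1 had overlapping groups. The antisense genes of this set were picked by a low p, which favours groups that do not overlap. Such groups were seen in 21.9% of all genes. TNRC6C-AS1 shares 1342 exonic nt on its own strand with TMC6, which had a log2 fold change of 0.22 ± 0.07.

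**Figure D3:**
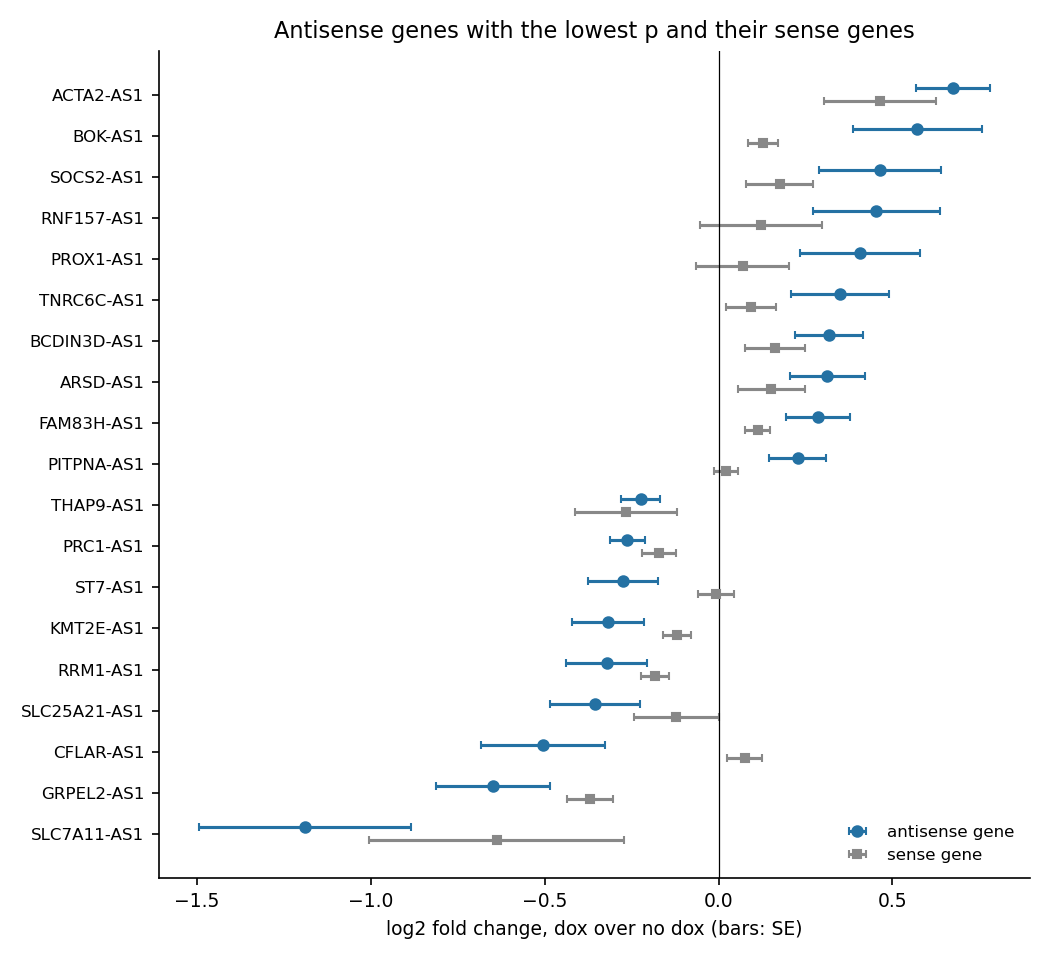
log2 fold change (doxycycline over untreated) with its standard error for the 19 antisense genes with the lowest p that have a sense gene in the table (blue circles) and for those sense genes (grey squares). The sense gene lies on the same side of 0 as its antisense gene in every pair shown except CFLAR-AS1 (ST7, at -0.0071, turned positive under other scalings), and nearer to 0 in every pair except THAP9-AS1. The antisense genes were picked by their p and the sense genes were not, so the distances from 0 are not a result about the pairs.

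Some pairs went opposite ways. CFLAR-AS1, opposite the gene of the apoptosis inhibitor c-FLIP, had 9.36, 11.5 and 6.99 signal in the doxycycline libraries, against 13.4, 12.3 and 14.3 in the untreated libraries. CFLAR had 231.9, 237.8 and 240.1 signal in the doxycycline libraries, against 231.3, 217.0 and 225.2 in the untreated libraries. The antisense gene was thus lower and the sense gene higher in every doxycycline library, though CFLAR by a log2 fold change of only 0.076 ± 0.05, and the antisense minus sense difference was -4.55 ± 0.33 in doxycycline libraries and -3.98 ± 0.08 in untreated libraries (exact permutation p = 0.1, the smallest possible). SLC25A5-AS1, opposite a mitochondrial ADP/ATP carrier gene, had 133.2, 127.0 and 128.2 signal in the doxycycline libraries, against 124.1, 115.5 and 113.2 in the untreated libraries. SLC25A5 had 2623, 2618 and 2721 signal in the doxycycline libraries, against 2816, 2924 and 2840 in the untreated libraries. Here the antisense gene was higher (log2 fold change 0.14 ± 0.06) and the sense gene lower (-0.11 ± 0.03) in every doxycycline library, with an exact permutation p of 0.1 for the difference of 0.25. AFAP1-AS1, chosen after its values were seen, was the third pair of that kind, at log2 fold changes of -0.19 ± 0.12 for the antisense gene and 0.13 ± 0.05 for AFAP1, a gene of an actin filament-associated protein. None of these 6 genes passed the adjusted threshold.

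Among pairs with a mean of at least 50 signal for both genes, SLC25A5-AS1 had the largest antisense minus sense difference between the groups over all 6 libraries. BAIAP2-AS1 (0.24), PITPNA-AS1 (0.21), SETD5-AS1 (0.18) and PAXIP1-AS2 (0.18) followed, with an exact permutation p of 0.1 for PITPNA-AS1 and SETD5-AS1 and of 0.3 for BAIAP2-AS1 and PAXIP1-AS2. This order depends on single libraries: the BAIAP2-AS1 difference was 0.11 without doxycycline 2 and 0.37 without untreated 1, against 0.30 for SLC25A5-AS1 without untreated 1. The SETD5-AS1 difference was 0.10 without doxycycline 3, and that of PAXIP1-AS2 was 0.091 without untreated 1. At the other end, JHDM1D-AS1, PRKCQ-AS1, ZEB1-AS1 and RHPN1-AS1 had differences between -0.22 and -0.20, each with an exact permutation p of 0.3. RHPN1 had groups that stood apart (log2 fold change 0.26 ± 0.06, adjusted p = 0.0749), and RHPN1-AS1 had overlapping ones. Without untreated 1 the differences were -0.046 for PRKCQ-AS1, -0.098 for RHPN1-AS1, -0.13 for JHDM1D-AS1 and -0.30 for ZEB1-AS1.

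Over all 277 pairs, the antisense and the sense gene had log2 fold changes of the same sign in 176, or 63.5%, with 71 pairs both higher and 105 both lower. In the rest, the antisense gene alone was higher in 50 and alone lower in 51. Across pairs the Spearman correlation of the 2 log2 fold changes was 0.34 and the Pearson correlation 0.44, as a description, since all pairs share the same 6 libraries and some share exons. The Spearman correlation was 0.40 in the 213 rows that share exons with the sense gene and 0.21 in the 53 with starts within 1000 nt and no shared exon. It was 0.50 in the 93 pairs with both means at 50 signal or more, where 68 pairs had the same sign. Removing the trend with GC content left 0.24, and leaving out 1 library gave 0.23 to 0.43. In 15 pairs both genes had groups that did not overlap, 12 of them in the same direction, and the 3 others are those described above. Taken singly, 16.3% of the antisense rows, 26.5% of the sense genes and 21.9% of all genes had such groups. No expected number of pairs was computed, so the 15 are a description.

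**Figure D4:**
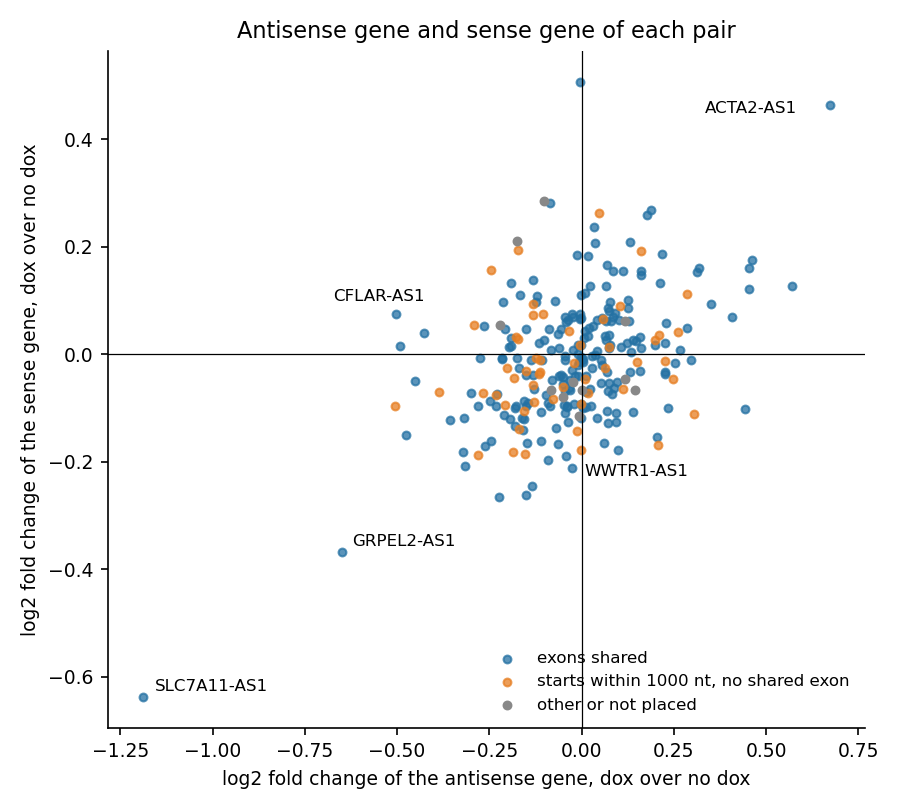
log2 fold change of the sense gene against that of the antisense gene (both doxycycline over untreated) for the 277 pairs, coloured by annotated arrangement. Most pairs crowd around 0, and 176 of 277 have the same sign in both, with SLC7A11-AS1, GRPEL2-AS1 and ACTA2-AS1 at the ends.

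The sense genes as a group were higher in signal and measured with less error. Of the 268, 2 were called lower (GRPEL2 and WWTR1) and none higher, and 64, or 23.9%, had an unadjusted p under 0.05, against 17.0% of all genes and 21.4% of all genes above 200 signal. The 2 calls are 0.746% of the sense genes, against 1.14% of all genes. The groups did not overlap in 71 sense genes, or 26.5%, 24 higher and 47 lower, against 21.9% of all genes, and the median log2 fold change was -0.012. Next in order of adjusted p were UBA6, a ubiquitin-activating enzyme (-0.19, adjusted p = 0.0556), the ubiquitin ligase SIAH2 (-0.24, 0.0569), SGOL1, which protects centromeric cohesion (-0.26, 0.0601), RRM1 (-0.18, 0.0624) and GAS5, a snoRNA host (0.15, 0.0720). After RHPN1, RAD21, a subunit of cohesin (-0.17, 0.0752), and THAP7 (0.21, 0.0935) completed the 10 with the lowest adjusted p. SIAH2 and UBA6 passed when only genes with a mean of at least 50 signal were tested (adjusted p = 0.0478 and 0.0470), and GAS5 and SIAH2 with the GC trend removed (0.0381 and 0.0482). Of the antisense partners of these 10, 2 had groups that did not overlap, GRPEL2-AS1 and RRM1-AS1, against 16.3% of all antisense rows. UBA6-AS1, SIAH2-AS1, SGOL1-AS1, GAS5-AS1, RAD21-AS1 and THAP7-AS1 had overlapping groups, like WWTR1-AS1 and RHPN1-AS1.

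Antisense genes spanned a wide range of signal, given first without division by length. The highest mean signal was 5434 for C17orf76-AS1, with 5568, 5825 and 5216 in the doxycycline libraries and 5277, 5268 and 5452 in the untreated libraries, and the lowest was 2.33 for MYLK-AS1. PXN-AS1 followed with 3201, 2935 and 2946 signal in the doxycycline libraries and 2897, 2887 and 2805 in the untreated libraries. OIP5-AS1, a conserved non-coding RNA also called cyrano, had 1304, 1315 and 1300 signal in the doxycycline libraries and 1329, 1449 and 1447 in the untreated libraries. MMP24-AS1, PCBP1-AS1, TM4SF19-AS1, FGD5-AS1, CERS6-AS1, PRMT5-AS1 and NOP14-AS1 completed the 10 highest, and the log2 fold changes of these 10 lay between -0.11 and 0.079, with none called. Per kilobase of the longest annotated transcript, the antisense gene was below its sense gene in 228 of 273 pairs with a length, at a median log2 ratio of -2.11. Exceptions were PXN-AS1, at 2517 signal per kb and PXN, a focal adhesion gene, at 1446, MMP24-AS1 at 657 and MMP24 at 37.7, and OIP5-AS1 at 154 and OIP5 at 51.1. MMP24-AS1 is listed as a protein-coding gene in the annotation.

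Of 15 antisense RNAs listed for having been studied, none was called. OIP5-AS1, THAP9-AS1 and ZEB1-AS1 had an unadjusted p under 0.05, a threshold that 17.0% of all genes passed. The 15 log2 fold changes lay between -0.22 and 0.23. ZEB1-AS1, beside the gene of a repressor of epithelial genes, had 140.2, 121.0 and 140.8 signal in the doxycycline libraries, against 134.3, 169.3 and 165.3 in the untreated libraries, so the groups overlapped. The 11 antisense genes of the HOX clusters, named here after their values were seen, ranged from HOXC-AS3, at 5.97 to 7.91 signal in doxycycline libraries and 7.57 to 8.05 in untreated libraries, to HOXA-AS3, at 258 to 309 signal in doxycycline libraries and 273 to 295 in untreated libraries. HOXD-AS1 alone had groups that did not overlap, with 165.5, 176.7 and 170.6 signal in the doxycycline libraries, against 153.1, 157.9 and 164.3 in the untreated libraries. Groups that did not overlap were seen in 21.9% of all genes. None of the 11 had an unadjusted p under 0.05.

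Other kinds of non-coding gene were counted beside the antisense genes, and the shares to read them against are the 1.14% of all genes called and the 17.0% with an unadjusted p under 0.05. Of 58 genes named LINC and a number, none was called and none had an unadjusted p under 0.05, at a median log2 fold change of -0.0053. Of 14 snoRNA host genes named SNHG and a number, 1 was called lower, SNHG3 (log2 fold change -0.22 ± 0.04, adjusted p = 0.0381). Antisense RNAs are among the targets of the nuclear RNA exosome and its adaptors, and of 23 genes of nuclear RNA decay none was called. RBM7, an RNA-binding subunit of the exosome-targeting complex, had the only unadjusted p under 0.05 among them, with 166.6, 152.8 and 175.7 signal in the doxycycline libraries, against 187.1, 176.0 and 194.5 in the untreated libraries (log2 fold change -0.17 ± 0.07, adjusted p = 0.231). The log2 fold change increased with transcript GC content across all 13115 genes with a value (Spearman 0.44), and across the 295 antisense rows with a value the correlation was 0.093.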

How the data were processed

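RNA was measured in 6 RKO libraries, 3 with doxycycline and 3 untreated, grouped by their titles. The deposited RKO values are a signal after ComBat, a batch adjustment, per the file name, which also says FPKM; the sums of the columns contradict FPKM, and the planned test was kept. HISAT, Bowtie2, HTSeq, edgeR and the build hg19 are named, per the submitters' processing notes, with no version or role; how reads over overlapping genes were assigned is not given in the sources used here. Values were taken as log2(signal + 1), all 15590 rows passed a mean of at least 1, and limma 3.58.1 (R 4.3.3) with a variance trend gave the tests, adjusted by Benjamini-Hochberg over all rows and tested on simulated data. Single genes and pair differences were also compared by exact two-sided permutation, smallest p 0.1. Errors are SE for fold changes and SD over 3 libraries for levels. Lengths, GC content and overlaps came from GENCODE v29 (GRCh38), which matched 294 of 300 antisense names by symbol or older symbol. The match of HNRNPU-AS1 was taken as HNRNPU itself, so its length, GC content and arrangement are not its own, though it stayed in the counts. Promoter windows came from RefSeq (GRCh38.p14). Named were the called antisense genes, the 10 with the lowest p in each direction, the 10 highest in signal, the 10 whose sense gene had the lowest p, the 5 largest and 5 smallest pair differences and a list of studied RNAs; 1 gene named by this rule is not reported here. Members and lists were chosen with earlier results of these data known. The mouse colon table was not used here, and no column of sample values was left unused (0). Depth is unknown, so no counting interval was computed.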

Additional observations from a re-analysis of the deposited data

How the results depend on the processing

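Both calls of antisense genes stood with a pseudocount of 0.5 or 10, no filter on low values, robust variance estimation and over genes with a GC value. With a mean of at least 50 signal, 0 antisense genes were higher, since ACTA2-AS1 is then not tested, and 1 was lower. Equal sums, quantile normalization, median centring and removal of the GC trend each gave 0 antisense genes lower and 1 higher. With a block of libraries that share equal values the counts were 0 and 0, with 0 calls in the whole table, so a call lost there is not particular to a gene. The fold changes were unchanged, at 0.67 for ACTA2-AS1 (adjusted p = 0.204) and -0.98 for ZNF280C (0.0769). Without 1 library the counts were 0 to 0 higher and 0 to 0 lower, ACTA2-AS1 lay between 0.63 and 0.75, and ZNF280C between -1.13 and -0.82, called in 1 of 6 cases. The whole table had 1 to 24 calls in these fits, against 178, and 16 to 39 antisense rows had an unadjusted p under 0.05.

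A replicate block gave 0 antisense genes higher and 0 lower, with 1 call in the whole table; ACTA2-AS1 stayed at 0.67 (adjusted p = 0.0991) and ZNF280C at -0.98 (0.0991). Deviations of libraries with the same number had correlations of 0.081, -0.53 and 0.063, and the numbers were not taken to pair the libraries. The values had already been adjusted for batch, so such correlations cannot show whether libraries were paired. In the block of libraries that share equal values all the correlations were negative. They were -0.53 for doxycycline 2 and untreated 2, -0.34 for doxycycline 3 and untreated 1, and -0.28 for doxycycline 1 and untreated 3, which share 0 equal values. Doxycycline 2 and untreated 2 also share the 310 equal values that the other block covers.

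Small log2 fold changes turned sign. Under equal sums, quantile normalization, median centring and the GC correction, ZEB1 had 0.00096, 0.032, 0.0043 and 0.067, and ST7 0.0030, 0.0085, 0.0063 and 0.013. BAIAP2 had 0.0053 under quantile normalization and 0.0011 under median centring. Leaving out 1 library gave -0.065 to 0.024 for BAIAP2, -0.0094 to 0.20 for GAS5-AS1, -0.026 to 0.11 for JHDM1D, -0.0083 to 0.13 for PRKCQ, -0.021 to 0.19 for PROX1, -0.022 to 0.17 for RHPN1-AS1, -0.050 to 0.32 for RNF157, -0.23 to 0.061 for SIAH2-AS1, -0.056 to 0.027 for ST7, -0.079 to 0.18 for THAP7-AS1, -0.086 to 0.044 for WWTR1-AS1 and -0.033 to 0.025 for ZEB1. The cause was not tested.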
